A study of Mus musculus with 2 samples.

Results

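The neuron.5 cluster held 374 of the 18281 brainstem nuclei in the deposited single-nucleus RNA-seq counts. Its members are all nuclei that the deposited annotation names neuron.5, which is 1 of 9 neuronal clusters among 16 clusters. The study asked how the brainstem transcriptome differs between HETs and WTs, and profiled 1 library of each genotype. HET stands for *Scn1a* A1783V/WT, a heterozygous knock-in of a missense mutation in *Scn1a*, which encodes the alpha subunit of the sodium channel NaV1.1. The mutation was switched on by crossing Sox2-Cre dams with males that carry the floxed *Scn1a* allele, so every cell descended from the early embryo can carry it, and per the labels WTs were taken from littermates with intact copies. Both samples came from female C57Bl6 mice at postnatal day 41, neither received a treatment, and both labels name the brainstem as the tissue. The WT library held 9259 nuclei and 70301390 unique molecular identifiers (UMIs, each standing for 1 captured RNA molecule), and the HET library 9022 nuclei and 66176778 UMIs. The deposited class of every nucleus is singlet, and 23 nuclear barcodes occur in both libraries, none of them in neuron.5 of both. Of the neuron.5 barcodes, 1 also occurs in the other library, in another cluster.

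Granule cells are small, densely packed excitatory neurons that receive mossy fibres and send out parallel fibres. Nearly all of them lie in the cerebellum, and a smaller population with the same marker genes lies in the cochlear nuclei, which belong to the brainstem. Both descend from the rhombic lip, the dorsal edge of the embryonic hindbrain, as do the unipolar brush cells that relay mossy fibre signals to granule cells and the precerebellar neurons that give rise to mossy fibres.

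The nuclei of neuron.5 had the marker profile of granule cells, but not all of them. Subcluster 15 of the deposited clustering, with 282 nuclei, had high levels of granule cell genes. Subcluster 21, with 49 nuclei, had granule cell genes together with high levels of oligodendrocyte genes. Subcluster 33, with 43 nuclei, had no UMI of the granule cell gene *Gabra6* and had high levels of unipolar brush cell genes. These are levels summed over a subcluster, and not every nucleus had a UMI of such genes. Because the authors formed the clusters from the expression of these same genes, the marker values below describe the cluster and are not tests. With 1 library per genotype, no comparison between genotypes was tested either. Levels are UMIs summed over nuclei and given per 1000000 UMIs (CPM), and ranges in parentheses are 95% intervals that cover counting error only.

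The HET library held many more of these nuclei than the WT library. There were 42 neuron.5 nuclei in the WT library, 0.454% (0.327 to 0.613) of its nuclei, and 332 in the HET library, 3.68% (3.30 to 4.09). The share was 8.11 times as large in the HET library (5.87 to 11.5). All 3 subclusters leaned the same way. Subcluster 15 had 33 WT and 249 HET nuclei, a ratio of shares of 7.74 (5.37 to 11.5). Subcluster 21 had 3 and 46 nuclei, with a ratio of 15.7 (5.06 to 79.1). Subcluster 33 had 6 and 37 nuclei, with a ratio of 6.33 (2.65 to 18.3). Within neuron.5, the share of subcluster 15 was 78.6% (63.2 to 89.7) in WT and 75% (70.0 to 79.6) in HET, and that of subcluster 33 was 14.3% and 11.1%. Subcluster 21 made up 7.14% (1.50 to 19.5) in WT, on 3 nuclei, and 13.9% (10.3 to 18.0) in HET. The intervals of the 2 libraries overlapped for each subcluster.

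**Figure D1:**
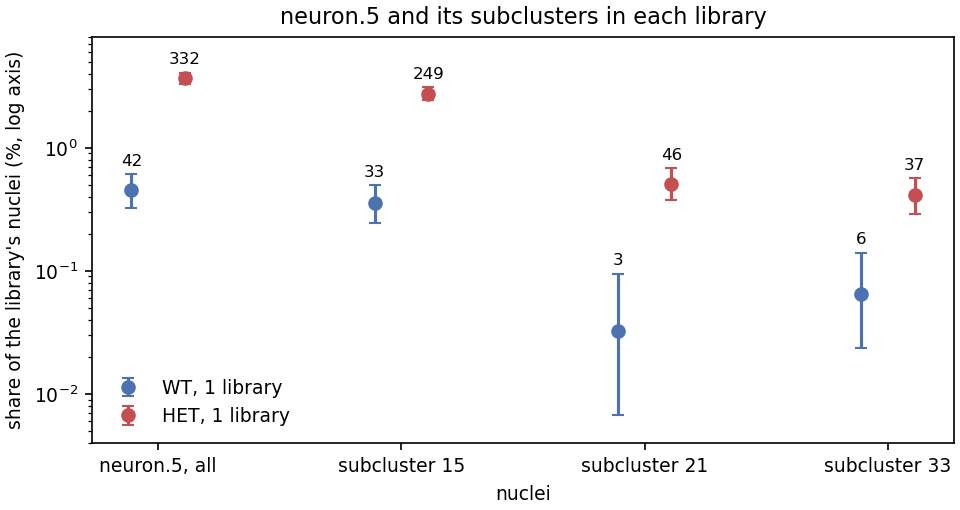
Share of each library's nuclei that fell in neuron.5 and in its 3 deposited subclusters, in percent on a log axis. Points are single libraries (WT in blue, HET in red), bars are exact 95% binomial intervals for counting error only, and numbers give nuclei. The HET share lies above the WT share in neuron.5 and in each subcluster, and no pair of intervals overlaps.

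Other neuronal clusters also differed in share between the libraries. The ratio of HET to WT shares was 3.05 (2.46 to 3.81) in neuron.4 and 2.29 (1.87 to 2.81) in neuron.3. It was 0.832 (0.798 to 0.867) in neuron.1, the largest cluster, 0.521 (0.449 to 0.603) in neuron.2 and 0.736 (0.456 to 1.18) in neuron.7. In neuron.6 it was 0.0428 (0.0136 to 0.103), on 120 WT and 5 HET nuclei. Neuron.9 had a ratio of 0.0586 (0.00683 to 0.228), on 35 and 2 nuclei. Neuron.8 had 0.210 (0.0901 to 0.436), on 44 and 9 nuclei. The genes that mark position along the hindbrain differed too. A list of 8 *Hox* genes held *Hoxa2*, *Hoxb2*, *Hoxa3*, *Hoxb3*, *Hoxd3*, *Hoxa4*, *Hoxb4* and *Hoxd4*. Summed over it, the other neuron clusters had 125 CPM in WT against 72.8 CPM in HET. Summed over 7 *Hox* genes of the caudal medulla, they had 48.5 and 19.3 CPM. With 1 library per genotype, genotype, mouse and the tissue that entered each library cannot be told apart.

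The 4 core markers were each higher in neuron.5 than in any other neuronal cluster. *Gabra6* (ENSMUSG00000020428, chromosome 11 of GRCm38 from 42306437 to 42321072) encodes the alpha6 subunit of the GABA-A receptor, which in the brain is known almost only from granule cells. It had 56 UMIs or 356 CPM (269 to 462) in the WT nuclei of neuron.5 and 484 UMIs or 379 CPM (346 to 414) in the HET nuclei. The other 8 neuron clusters together had 0.41 CPM in WT and 2.04 CPM in HET. The level was above theirs by 8.33 on the log2 scale (8.05 to 8.62) over both libraries, the largest such difference of any gene with at least 50 UMIs in neuron.5 and a ratio above 2-fold in both libraries.

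*Fat2* (ENSMUSG00000055333, chromosome 11 of GRCm38 from 55250609 to 55336564), a large cadherin of parallel fibres, had 140 CPM (87.7 to 212) in WT and 188 CPM (165 to 213) in HET. *Cbln3* (ENSMUSG00000040380, chromosome 14 from 55878913 to 55884392), a secreted cerebellin made by granule cells, rested on 6 WT and 90 HET UMIs, 38.1 CPM (14 to 83.0) and 70.5 CPM (56.7 to 86.6). *Slc17a7* (ENSMUSG00000070570, chromosome 7 from 45163949 to 45176142) loads glutamate into synaptic vesicles, and had 172 CPM (113 to 250) and 164 CPM (143 to 188). For each of these genes the intervals of the 2 libraries overlapped. Over both libraries, the log2 difference from the other neuron clusters was 6.14 for *Fat2*, 6.15 for *Cbln3* and 3.86 for *Slc17a7*.

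Among the neuronal clusters, part of the core markers also stood out in neuron.4. *Gabra6* did not exceed 3.46 CPM and *Cbln3* did not exceed 2.23 CPM in any of the other 8. *Fat2* and *Slc17a7*, by contrast, had 24.1 and 125 CPM in neuron.4, which also carried *Barhl1*, a transcription factor of the rhombic lip lineage, at 8.93 CPM. In neuron.5 *Barhl1* had 17.4 CPM (25 UMIs). Over 16347 genes, the Pearson correlation of log2(CPM + 1) with neuron.5 was 0.891 for neuron.1 and 0.885 for neuron.4, the 2 most similar neuronal clusters. Microglia had the same value as neuron.1 to 3 digits, 0.891, so the correlation did not set the neuronal clusters apart from all others. These correlations run across genes, which are not independent, and they reflect shared depth as well as shared genes.

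**Figure D2:**
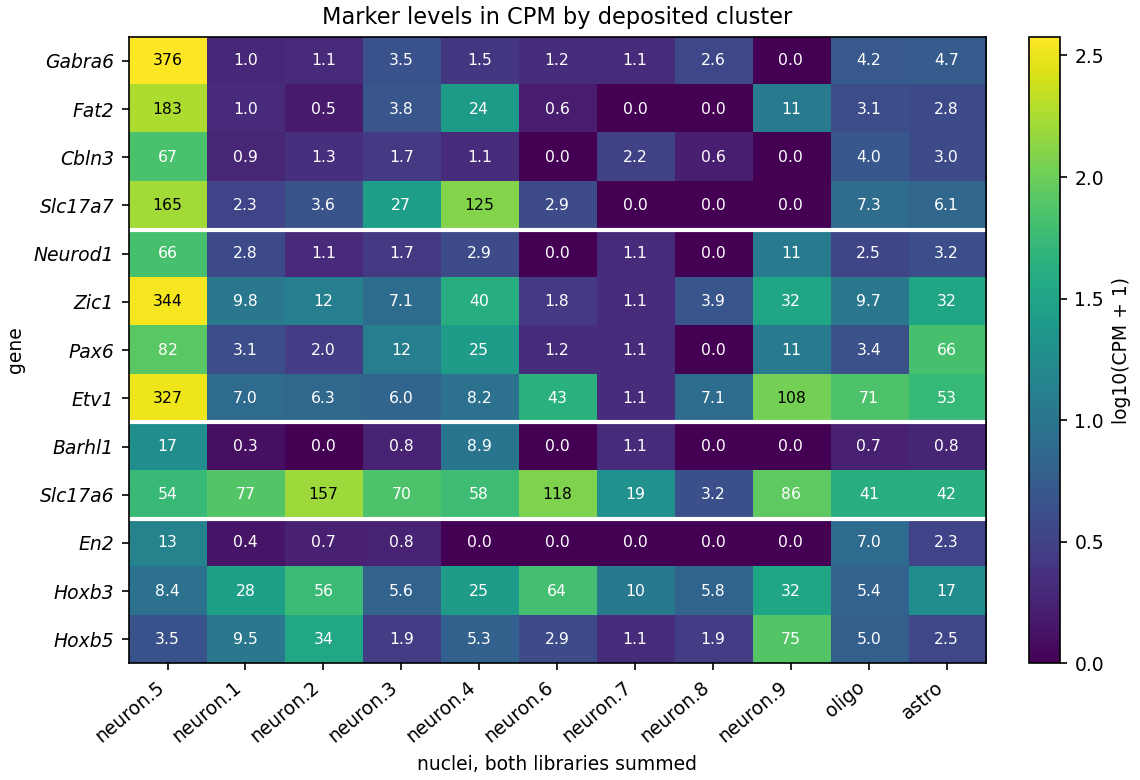
Levels in CPM of granule cell core markers (top block), other granule cell genes, precerebellar genes and genes of hindbrain position in neuron.5, the other 8 neuronal clusters, oligodendrocytes (oligo) and astrocytes (astro), both libraries summed. Numbers give CPM and colours its log10 after adding 1. *Gabra6* stands at 376 in neuron.5 and at or below 4.66 in each other column, whereas *Slc17a7* is also high in neuron.4, at 125.

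At the level of single nuclei, *Gabra6* was found in 27 of 42 WT nuclei, 64.3% (48.0 to 78.5), and in 217 of 332 HET nuclei, 65.4% (60.0 to 70.5). In the oligodendrocyte cluster, which should lack it, the shares were 0.170% (0.0350 to 0.495) in WT and 1.51% (1.06 to 2.09) in HET. The median depth was 3461 and 3189 UMIs in neuron.5 and 2738 and 2853.5 in oligodendrocytes. At a common depth of 1000 UMIs per nucleus, which no nucleus fell short of, the expected shares were 29.5% and 31.3% in neuron.5 against 0.0439% and 0.419% in oligodendrocytes. Of all *Gabra6* UMIs, 58.9% (48.4 to 68.9) in WT and 69.5% (66.0 to 72.9) in HET came from neuron.5. All nuclei outside it together held 0.56 CPM in WT and 3.27 CPM in HET. Over both libraries, *Gabra6* had 4.22 CPM in oligodendrocytes, 4.66 CPM in astrocytes and 12.7 CPM in microglia.

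The 4 core markers did not often meet in 1 nucleus at this depth. Of the 374 nuclei, 333 had a UMI of at least 1 of them, 220 of at least 2, 75 of at least 3 and 14 of all 4. At least 2 were found in 58.8% of neuron.5 nuclei, compared with 1.1% of the nuclei of the other neuron clusters and 0.5% of oligodendrocyte nuclei. The 41 nuclei without any core marker included 22 of subcluster 15, 6 of subcluster 21 and 13 of subcluster 33.

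Further genes of granule cells followed the core markers. Of 18927 genes with at least 50 UMIs in the neuronal clusters, 9.91% were more than 2-fold higher in neuron.5 than in the other neuron clusters and 12.9% more than 2-fold lower, with a median log2 difference of 0. Of 17 further granule cell genes, 16 were more than 2-fold higher and 0 lower, with a median log2 difference of 3.86. The transcription factors of the rhombic lip lineage were among them. *Neurod1* had 65.5 CPM against 2.60, *Pax6* 81.6 against 4.81, *Zic1* 344 against 11.4, and *Etv1*, which marks maturing granule cells, 327 against 7.58. *Cadps2*, which acts in the release of dense-core vesicles from parallel fibres, had 1168 CPM against 84.4. *Reln*, the secreted protein that guides Purkinje cell placement, had 733 against 50.5. *Tiam1*, an activator of Rac, was the 1 gene of the list within 2-fold, at 0.72 on the log2 scale (0.53 to 0.90).

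Lists for other neuron types gave mixed counts. Genes of precerebellar mossy fibre neurons were more than 2-fold higher in neuron.5 for 5 of 6 tested, with a median log2 difference of 4.23, but 4 of these are also granule cell genes, *Fat2*, *Slc17a7*, *Etv1* and *Pax6*, and the other was *Barhl1*. Of 5 telencephalic excitatory genes tested, 2 were more than 2-fold higher and 0 lower, compared with 9.91% and 12.9% of all genes. They were *Prox1* at 47.4 CPM against 8.84 and *Neurod6* with a log2 difference of 2.29. *Prox1* had 36 UMIs or 111 CPM in subcluster 21, 31 UMIs or 32.5 CPM in subcluster 15 and 1 UMI in subcluster 33. Of 5 unipolar brush cell genes tested, 5 were more than 2-fold higher. *Slc32a1*, *Gad1*, *Gad2* and *Slc6a5*, which mark inhibitory neurons, summed to 66.9 CPM (54.2 to 81.7), and 3 of the 4 were more than 2-fold lower than in the other neuron clusters. *Gad2* had 20.2 CPM against 68.6. Of 8 Purkinje cell genes, 0 differed by more than 2-fold in either direction, with a median log2 difference of -0.34, and *Pcp2*, which marks Purkinje cells, had 3 UMIs. *Slc17a6*, the other main vesicular glutamate transporter of the hindbrain, had 54.4 CPM in neuron.5 and 78.5 CPM in the other neuron clusters. Among general neuronal genes, *Rbfox3*, which encodes NeuN, had 785 CPM against 250, and *Meg3* had 4557 against 11468.

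The question whether these nuclei are of cerebellar or of cochlear origin was addressed with genes of position, and the counts did not settle it. Compared with the other neuron clusters, *En2* was higher and 7 of 8 *Hox* genes were more than 2-fold lower. Compared with oligodendrocytes, the intervals overlapped for the shares of nuclei with *En2* and for the *Hox* sums. The reference mapping of the paper names a cluster of cerebellar glutamatergic neurons, and its overlap with neuron.5 was not examined. *En2* marks the first rhombomere, from which the cerebellum forms, and remains on in cerebellar granule cells. It had 0 UMIs in WT, where 3 UMIs would have been 19.1 CPM, and 19 UMIs or 14.9 CPM (8.96 to 23.2) in HET. As counted, 4.01% (2.26 to 6.53) of neuron.5 nuclei had a UMI of *En2*, and 2.19% (1.77 to 2.69) of oligodendrocyte nuclei did. After thinning, the shares were 1.23% (0.44 to 3.09) and 0.72% (0.49 to 1.03). Both were higher in neuron.5, with overlapping intervals. The thinned share of neuron.5 was also above that of the other neuron clusters, at 0.0526% (0.0198 to 0.117). As counted, oligodendrocytes had *En2* in 2.49% of WT and 1.97% of HET nuclei, against 0.115% and 0.652% in the other neuron clusters. Summed over both libraries, *En2* had 13.2 CPM in neuron.5, 0.39 CPM in the other neuron clusters, a log2 difference of 5.10 (4.24 to 5.91), and 6.99 CPM in oligodendrocytes. Of its 19 UMIs, 7 lay in subcluster 21. The other first rhombomere gene, *En1*, had 0 UMIs in neuron.5.

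*Hox* genes mark the more caudal rhombomeres, some of which give rise to the cochlear nuclei. The 8 *Hox* genes listed above, from *Hoxa2* to *Hoxd4*, are not confined to those rhombomeres. They summed to 44 UMIs in neuron.5, 30.7 CPM (22.3 to 41.2) over both libraries. The other neuron clusters had 101 CPM, oligodendrocytes 35.4 CPM (32.3 to 38.7) and neuron.3 25.6 CPM (21.4 to 30.3). The 8 WT UMIs came to 50.9 CPM (22 to 100.2) and the 36 HET UMIs to 28.2 CPM (19.7 to 39.0). By gene, 7 of the 8 were more than 2-fold lower in neuron.5 than in the other neuron clusters and 0 higher, with a median log2 difference of -1.83. *Hoxb3* had 12 UMIs or 8.37 CPM against 27.9 CPM, and *Hoxa3* 3 UMIs, a log2 difference of -3.16 (-5.44 to -1.61). The 7 caudal *Hox* genes summed to 14 UMIs, 9.76 CPM (5.34 to 16.4), compared with 34.8 CPM in the other neuron clusters and 15.4 CPM in oligodendrocytes. Over both libraries, neither *Hox* level of neuron.5 was above that of oligodendrocytes. *Atoh7*, a transcription factor that marks bushy cells of the cochlear nucleus, had 14 UMIs in neuron.5, at 9.76 CPM against 7.17 CPM in the other neuron clusters, a log2 difference of 0.44 (-0.43 to 1.20). The other bushy cell marker, *Hhip*, had 21 UMIs, of which 16 lay in subcluster 21 and 5 in subcluster 15.

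Under the rule for named genes, the 15 genes furthest above the other neuron clusters included *Gabra6*, *Fat2*, *Cbln3* and *Etv1*, described above. *Lmx1a*, a transcription factor of the rhombic lip and of unipolar brush cells, had 206 CPM against 2.67. *Cnpy1*, whose product acts in fibroblast growth factor signalling, had 107 against 1.79, and *Il16*, of which a neuronal form is known from granule cells, had 211 against 4.36. *Ror1*, a Wnt receptor, had 533 against 16.9. *Cnksr3*, a scaffold of kinase signalling, had 130 against 3.64. Long non-coding RNAs made up 4 of the list: *Gm42397* had 350 CPM against 3.41, *Gm42912* 43.2 against 0.40, *Gm36011* 70.4 against 0.69, and *Gm31615* 83.0 against 1.99. The remaining 2 genes, *St18* and *Galnt5*, were also high in oligodendrocytes. *St18*, a transcription factor of oligodendrocytes, had 3899 CPM there, 1994 CPM in subcluster 21 and 386 CPM in subcluster 15. *Galnt5* had 237 CPM in oligodendrocytes, 173 CPM in subcluster 21 and 7.33 CPM in subcluster 15.

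The subclusters, which are the numbers 15, 21 and 33 of the deposited clustering at a resolution of 0.8, separated nuclei with different marker genes. Subcluster 15 was granule-cell-like. It had 459 CPM of *Gabra6* (438 UMIs), 79.6 of *Cbln3*, 203 of *Fat2* and 184 of *Slc17a7*, and *Gabra6* was found in 211 of its 282 nuclei, 74.8% (69.3 to 79.8). *Eomes*, which marks unipolar brush cells, had 6 UMIs in it. The level of *Lmx1a* was nonetheless 195 CPM in subcluster 15, and 120 of its nuclei, 42.6% (36.7 to 48.6), had a UMI of it. After thinning, the share was 16.4% (12.2 to 21.2), compared with 0.156% in oligodendrocytes.

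Subcluster 33 was unipolar-brush-cell-like and goes against a granule cell label. None of its 43 nuclei had a UMI of *Gabra6*, a share of 0% with an exact 95% interval that reaches 8.22%. Against subcluster 15, *Gabra6* was at least 4.57 lower on the log2 scale, with a floor of 3 counts over the subcluster. *Cbln3* had 1 UMI and differed from subcluster 15 by -3.63 on the log2 scale (-8.95 to -1.10). Over all 7807 genes with at least 20 UMIs in the pair, 8.47% were more than 2-fold higher in subcluster 33 than in subcluster 15 and 13.0% more than 2-fold lower, with a median of 8 UMIs per gene in subcluster 33 and a median log2 difference of -0.02. Of the 6 genes in the list for unipolar brush cells, 5 were more than 2-fold higher than in subcluster 15 and 0 lower, with a median log2 difference of 2.19. *Eomes* had 168 CPM against 6.28, a log2 difference of 4.74 (3.42 to 6.31). *Lmx1a* had 612 CPM against 195, and *Calb2*, which encodes calretinin, 187 against 28.3. *Plcb4*, a phospholipase, was within 2-fold, at 670 against 786 CPM. *Calb2* also stood in the list of further granule cell genes, of which 7 of 17 were more than 2-fold lower in subcluster 33 and 2 were higher.

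Both groups shared part of the core profile. *Fat2* had 155 CPM in subcluster 33 and 203 in subcluster 15, a log2 difference of -0.39 (-1.07 to 0.22), and *Slc17a7* had 200 and 184 CPM. *Zic1* had 245 and 398 CPM, both far above the 11.4 CPM of the other neuron clusters. *Etv1* and *Cadps2*, by contrast, were low in subcluster 33, at 19.3 and 103 CPM, compared with 385 and 1479 CPM in subcluster 15. *Samd3* led subcluster 33 with 37 UMIs or 238 CPM, compared with 0 UMIs in subclusters 15 and 21.

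*Gabra6* and *Eomes* rarely met in 1 nucleus. Of the 374 nuclei, 237 had *Gabra6* only, 19 had *Eomes* only, 7 had both and 111 had neither. All 19 nuclei with *Eomes* only lay in subcluster 33, while 6 of the 7 with both lay in subcluster 15 and 1 in subcluster 21. The other neuron clusters together had *Eomes* in 5 of 11137 nuclei.

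The promoters of these 2 genes are shown because their transcripts divided the cluster. They are the RefSeq promoter windows of GRCm38.p6, 250 bases before to 50 bases after the gene start, *Gabra6* on the minus strand (chr11:42321023-42321322) and *Eomes* on the plus strand (chr9:118477939-118478238). Capitals mark TTGGC or GCCAA, which are the same letters on the 2 strands and the half-site of nuclear factor I, whose family members act in granule cell maturation.
Gabra6: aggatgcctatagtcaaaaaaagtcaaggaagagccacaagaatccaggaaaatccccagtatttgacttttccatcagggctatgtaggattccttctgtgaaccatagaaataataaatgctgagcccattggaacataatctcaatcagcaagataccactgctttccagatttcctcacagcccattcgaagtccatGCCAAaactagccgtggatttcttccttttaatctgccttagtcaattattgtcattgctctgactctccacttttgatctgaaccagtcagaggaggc
Eomes: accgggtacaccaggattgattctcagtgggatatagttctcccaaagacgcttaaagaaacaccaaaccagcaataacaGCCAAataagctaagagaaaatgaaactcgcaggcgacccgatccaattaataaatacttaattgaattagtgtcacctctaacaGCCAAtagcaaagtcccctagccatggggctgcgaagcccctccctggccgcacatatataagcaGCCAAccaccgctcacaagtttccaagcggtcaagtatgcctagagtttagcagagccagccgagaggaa
The window of *Gabra6* held 1 match and that of *Eomes* 3, and 46.7% of 32851 promoter windows of this length held at least 1, so the letters do not set these genes apart. Of the family itself, *Nfia* had 566 CPM in subcluster 15 and 361 in subcluster 33, *Nfib* 549 and 200, and *Nfix* 146 and 70.9.

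Subcluster 21 combined genes of 2 cell types and is left unnamed. It had *Gabra6* at 315 CPM and *Fat2* at 136 CPM, together with the myelin protein genes *Mbp* at 1753 CPM and *Mog* at 429 CPM. Subcluster 15 had 356 and 60.7 CPM of these genes, and the other neuron clusters 125 and 23.0. The 5 oligodendrocyte markers summed to 5861 CPM (5600 to 6130) in subcluster 21, to 1562 CPM in subcluster 15, to 1605 CPM in subcluster 33 and to 12074 CPM in oligodendrocytes. None of the 5 was at 0 in any of them over both libraries. Their sum was 532 CPM in the other neuron clusters. The median doublet score was 0.296 in subcluster 21, compared with 0.190 in subcluster 15 and 0.159 in subcluster 33. Neuron.4, neuron.6 and neuron.8 had medians of 0.272, 0.286 and 0.326, and all nuclei together 0.144. The profile of subcluster 21 correlated most with oligodendrocytes (Pearson r = 0.860 over 16347 genes), and a second deposited label calls 3 of its 49 nuclei oligodendrocytes and the other 46 neurons. Of all nuclei, 126 carry the same subcluster number, and 49 of them lie in neuron.5. A single HET nucleus with 53273 UMIs supplied 16.9% of the HET UMIs of subcluster 21, and the next largest had 23010. Whether these are nuclei that were captured together was not tested.

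**Figure D3:**
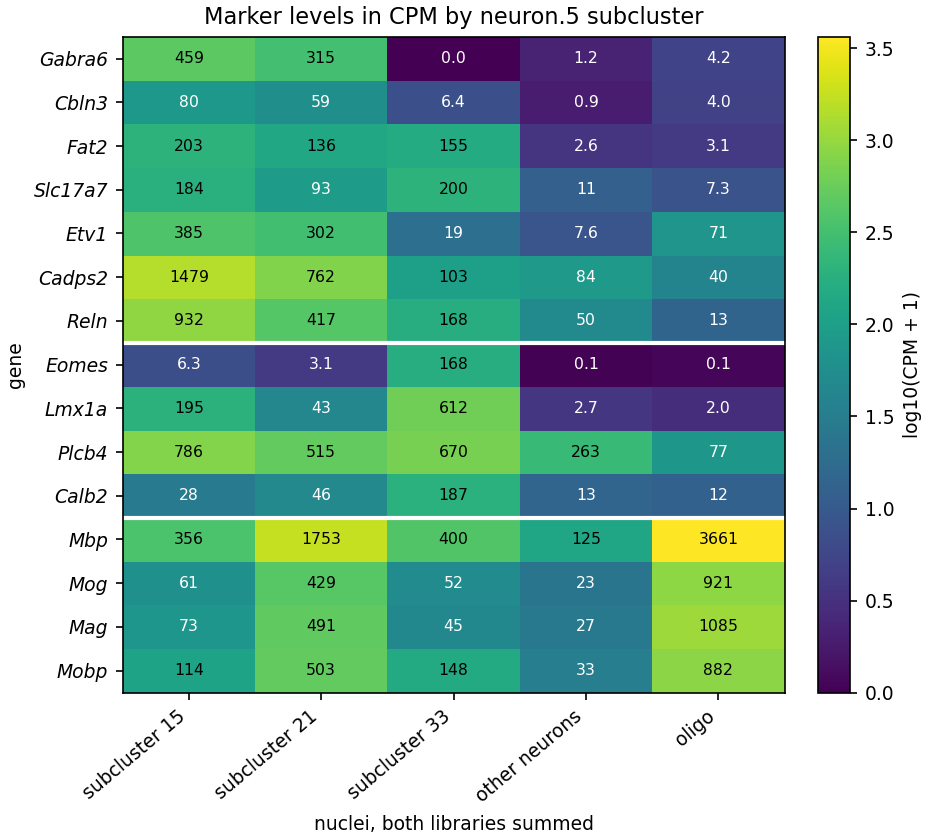
Levels in CPM of granule cell genes (top block), unipolar brush cell genes (middle block) and oligodendrocyte genes (bottom block) in the 3 subclusters of neuron.5, in the other neuron clusters and in oligodendrocytes (oligo), both libraries summed. Numbers give CPM and colours its log10 after adding 1. *Gabra6* is at 459 in subcluster 15 and at 0 in subcluster 33, *Eomes* at 6.28 and 168, and *Mbp* at 1753 in subcluster 21.

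Among receptor genes, neuron.5 differed from the other neuron clusters subunit by subunit. GABA-A receptors are pentameric chloride channels assembled from several subunit families, and granule cells are known for pairing alpha6 with the delta subunit outside synapses. *Gabrd*, the delta subunit, had 41.1 CPM against 2.06 in the other neuron clusters, 4.32 higher on the log2 scale (3.88 to 4.74). *Gabrb2*, a beta subunit, had 577 CPM against 178. Of the 15 GABA-A receptor genes, 4 were more than 2-fold higher and 8 more than 2-fold lower, compared with 9.91% and 12.9% of all genes. Among the lower genes were *Gabra2* at 50.9 against 169 CPM, *Gabrb1* at 109 against 474 and *Gabrg3* at 62.7 against 565. In the unipolar-brush-cell-like subcluster 33, 6 of 11 GABA-A receptor genes were more than 2-fold lower than in subcluster 15 and 0 higher, compared with 13.0% and 8.47% of all genes in that pair, with *Gabrb2* at 77.4 CPM against 707.

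Among ionotropic glutamate receptors, *Grin2c*, an NMDA receptor subunit of mature granule cells, had 87.1 CPM against 8.08 in the other neuron clusters. It was the only 1 of 11 AMPA and NMDA receptor genes that was more than 2-fold higher, near the 9.91% of all genes. The number more than 2-fold lower was 6, compared with 12.9% of all genes. *Gria3* had 69.7 CPM against 578, *Gria1* 85.1 against 300 and *Grin2b* 194 against 493. *Gria2*, *Gria4*, *Grin1* and *Grin2a* lay within 2-fold. In subcluster 33, *Gria2* had 5002 CPM against 1428 in subcluster 15, and *Gria4* and *Grin2a* had 168 and 32.2 CPM against 1584 and 562. *Grm8*, a presynaptic metabotropic receptor, had 2327 CPM in subcluster 33 and 57.6 in subcluster 15, which rested on 361 and 55 UMIs.

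**Figure D4:**
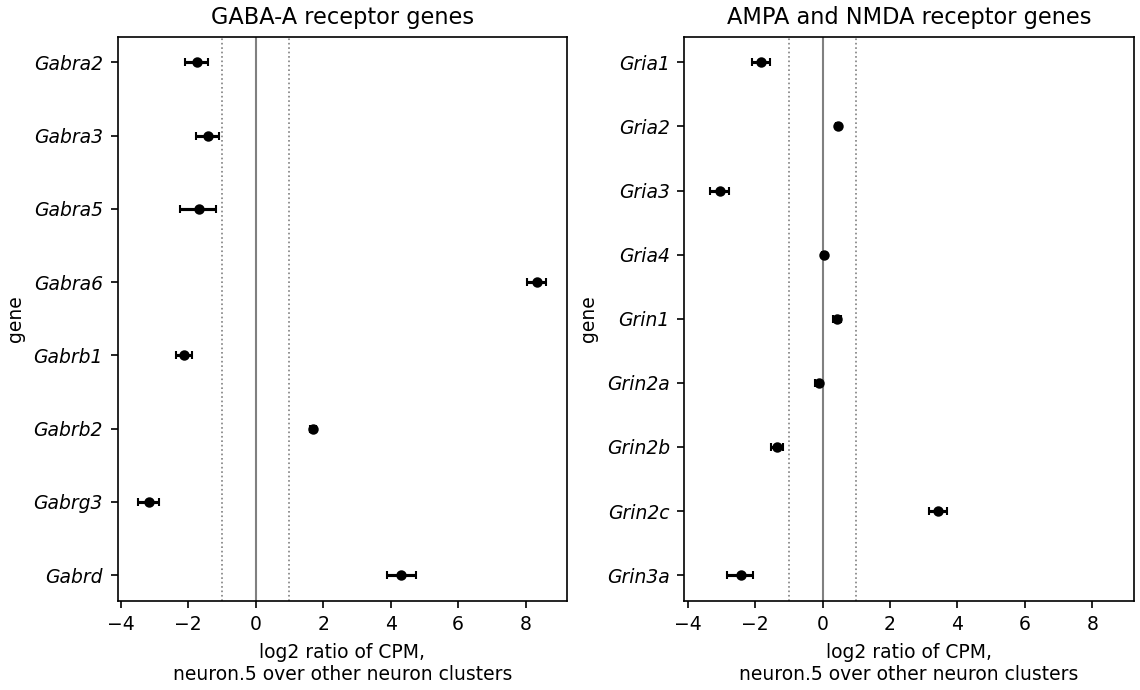
Log2 ratio of CPM, neuron.5 over the other neuron clusters, for genes of GABA-A receptors (left) and of AMPA and NMDA receptors (right), a selection of each list, both libraries summed. Bars are exact 95% intervals for counting error only, and dotted lines mark 2-fold. *Gabra6*, *Gabrd*, *Gabrb2* and *Grin2c* lie to the right of 2-fold.

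Of 27 potassium channel genes, 7 were more than 2-fold higher in neuron.5 and 5 more than 2-fold lower. Of all genes, 9.91% were higher and 12.9% lower by that margin. *Kcnd2*, the channel of the A-type current, had 8609 CPM against 1813, and its auxiliary subunit *Kcnip4* 8652 against 3896. *Kcnj6*, a G protein-gated inward rectifier, had 335 against 107, and the leak channel *Kcnk1* 99.0 against 33. *Kcnc2*, a channel of fast-spiking neurons, had 26.5 against 342. Among voltage-gated calcium channel genes, *Cacna1e* had 731 CPM against 279, and *Cacna2d3* 80.2 against 582. Of 12 genes of sodium channels and their partners, 1 was more than 2-fold higher and 3 more than 2-fold lower, compared with 9.91% and 12.9% of all genes. *Scn2a* had 548 CPM against 313.

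*Scn1a* (ENSMUSG00000064329, chromosome 2 of GRCm38 from 66270778 to 66440840), the mutated gene, was present in neuron.5 in both libraries. It had 73 UMIs or 464 CPM in WT and 500 UMIs or 392 CPM in HET, a log2 ratio of HET over WT of -0.25 (-0.60 to 0.13). The mutation is a missense change, and the counts do not separate the alleles, so the level is no check of the genotype. In subcluster 15 the ratio was -0.14 (-0.52 to 0.25), with 68 and 386 UMIs. The sodium channel genes *Scn2a* and *Scn8a* had ratios of -0.05 (-0.37 to 0.28) and -0.34 (-0.77 to 0.13).

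Most granule cell genes of neuron.5 had levels within 2-fold between the 2 libraries. Over all 8893 genes with at least 20 UMIs in neuron.5, 11.0% were more than 2-fold higher in HET and 6.97% more than 2-fold lower, with a median log2 ratio of -0.0035 and a median of 7 WT and 52 HET UMIs per gene. The 95% interval of the log2 ratio excluded 0 for 233 of the 980 higher and 280 of the 620 lower genes. Of 4 core markers, 0 passed 2-fold, and their median ratio was 0.26. *Gabra6* had a ratio of 0.09 (-0.31 to 0.52), *Slc17a7* of -0.06 (-0.64 to 0.57), *Fat2* of 0.43 (-0.21 to 1.13) and *Cbln3* of 0.89 (-0.29 to 2.37). In subcluster 15 the ratio of *Fat2* was 0.93 (0.17 to 1.80), on 15 WT and 179 HET UMIs. Of the 17 further granule cell genes, 2 were more than 2-fold higher in HET, *Grm4* and *Calb2*, and 0 lower, with a median ratio of 0.07. *Etv1* had 0.25 (-0.20 to 0.73), *Neurod1* -0.11 (-1.02 to 0.95) and *Cadps2* -0.07 (-0.29 to 0.15), whereas *Zic1* had -0.52 (-0.88 to -0.14).

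Outside neuron.5, the same core markers were higher in the HET library. Oligodendrocytes, which should lack *Gabra6*, held 5 UMIs of it in WT (0.86 CPM) and 53 in HET (6.72 CPM), for a log2 ratio of 2.97 (1.66 to 4.65). In the other neuron clusters its ratio was 2.33 (1.68 to 3.03). Summed over the 4 core markers, the other neuron clusters had 8.22 CPM in WT against 25.1 in HET. This sum includes neuron.4, whose share of nuclei was 3.05 times as large in HET. *Slc17a7* had a mean of 2.73 UMIs per nucleus in WT and 1.73 in HET in neuron.4. Over all other neuron clusters together, the means were 0.0637 and 0.174. Oligodendrocytes had 6.67 and 27.4 CPM. The level outside neuron.5 moved in the same direction as the number of neuron.5 nuclei, and its part in the differences between libraries was not tested. Because the background against which neuron.5 was set was lower in WT, the log2 difference of *Gabra6* from the other neuron clusters was 9.78 in WT and 7.54 in HET, although its level in neuron.5 was nearly the same.

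Of 10 genes for metabotropic and kainate receptors with at least 20 UMIs, 4 were more than 2-fold higher in HET and 0 lower, with a median ratio of 0.45. *Grm4*, the presynaptic receptor of parallel fibres, had 3 WT and 133 HET UMIs, a ratio of 2.45 (0.87 to 4.74), and in subcluster 15 of 2.40 (0.81 to 4.70). *Grm5* had 76.3 CPM in WT and 221 in HET, with 1076 and 1165 CPM in the other neuron clusters. *Grm7* had 95.4 CPM in WT and 363 in HET, and *Grm3* 69.9 and 242. Both were far higher in oligodendrocytes than in subcluster 15, at 1455 against 161 CPM for *Grm7* and 1062 against 50.3 for *Grm3*. In subcluster 15 their ratios were 1.20 (0.28 to 2.29) and 1.26 (-0.38 to 3.59). *Gabrb1* had 38.1 CPM in WT and 117 in HET, a ratio of 1.62 (0.47 to 3.09). The 4 genes past 2-fold, *Grm3*, *Grm4*, *Grm5* and *Grm7*, had 3 to 15 WT UMIs each, and 11.0% of all genes were past 2-fold in this direction.

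Oligodendrocyte genes were higher in HET over all nuclei of neuron.5, but not in each subcluster. The 5 markers summed to 1507 CPM (1321 to 1711) in WT and 2665 CPM (2576 to 2756) in HET, a ratio of 0.82 (0.63 to 1.02), compared with 0.23 (0.21 to 0.25) in the other neuron clusters. Of the 5, 2 were more than 2-fold higher, *Mag* and *Mobp*, and 0 lower, compared with 11.0% and 6.97% of all genes. Subcluster 21, which held most of these transcripts per nucleus, made up 7.14% of WT and 13.9% of HET nuclei of neuron.5. Within subcluster 15 the 5 markers summed to 1111 CPM (938 to 1307) in WT and 1634 CPM (1548 to 1724) in HET. Within subcluster 21 they were lower in HET, at 7930 CPM (6120 to 10107) in WT and 5807 CPM (5544 to 6079) in HET. The WT value rested on 65 UMIs from 3 nuclei. Within subcluster 33, with 6 WT nuclei, the intervals overlapped, at 1471 CPM (961 to 2156) and 1622 CPM (1416 to 1850).

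Ribosomal protein genes, whose products form the ribosome, were lower in HET. They summed to 8062 CPM in WT against 4833 in HET, where 69 of 77 genes with at least 20 UMIs were lower, 16 of them by more than 2-fold, and 3 were more than 2-fold higher. Of all genes, 6.97% were more than 2-fold lower and 11.0% more than 2-fold higher. The median ratio was -0.75, and over the same genes it was -0.89 in the other neuron clusters. Genes of oxidative phosphorylation, the respiratory chain of mitochondria, summed to 6530 and 4355 CPM, and 64 of 77 were lower, 14 of them by more than 2-fold, while 0 were more than 2-fold higher. Their median ratio was -0.53, and -0.62 in the other neuron clusters. Of 14 genes of glycolysis, 12 were lower, and 1 was past 2-fold in each direction, near the share of all genes, with a median ratio of -0.33, and of -0.33 over the same genes in the other neuron clusters. In absolute level, ribosomal protein genes stood higher in neuron.5 than in the other neuron clusters in both libraries, which had 4581 CPM in WT and 2478 in HET. Neuron.5 nuclei were also shallower, with a median of 3461 UMIs in WT and 3189 in HET, compared with 7769 and 8685 in the other neuron clusters, and the part of depth in these levels was not tested. Leaving out subcluster 21, an alternative chosen after the data had been seen, gave a median ratio of -0.57 for ribosomal protein genes.

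**Figure D5:**
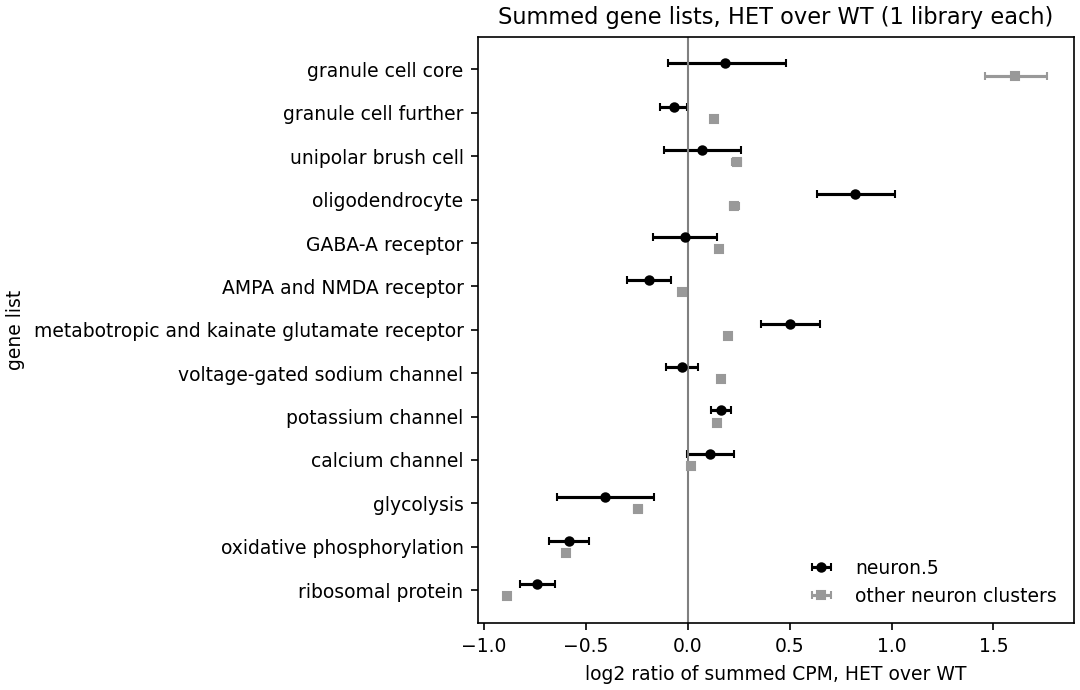
Log2 ratio of summed CPM, HET over WT, for 13 gene lists in neuron.5 (black circles) and in the other neuron clusters (grey squares), with 1 library per genotype. Bars are exact 95% intervals for counting error only, and values below 0 are lower in HET. Ribosomal protein and oxidative phosphorylation genes are lower in both, and the granule cell core markers are 1.61 higher outside neuron.5 and 0.18 higher within it.

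Under the rule for named genes, the 5 largest ratios among genes with at least 100 UMIs in neuron.5 each rested on 1 to 3 WT UMIs. *Daam2*, a Wnt signalling gene of oligodendrocytes, had 1 WT and 114 HET UMIs, a ratio of 3.81 (1.30 to 9.13), and *Dock1*, a Rac activator, had 1 and 107 UMIs and 3.72 (1.21 to 9.04). Both were higher in oligodendrocytes, at 408 and 352 CPM, than in subcluster 15, at 28.3 and 24.1 CPM. *Rasgef1b* had 3 and 139 UMIs, with a ratio of 2.51 (0.94 to 4.81), and *Filip1l* 3 and 132 UMIs, with 2.44 (0.86 to 4.73). *Grm4*, described above, was the other gene of the 5.

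The 5 smallest ratios rested on more WT UMIs. *Ttr*, the transthyretin gene of the choroid plexus, had 540 CPM in WT and 83.0 CPM in HET, a ratio of -2.70 (-3.13 to -2.27). The other neuron clusters had 234 and 27.4 CPM. The choroid plexus cluster held 108 WT and 6 HET nuclei, and its part in these levels was not tested. *Otx2os1*, a long non-coding RNA next to *Otx2*, had 37 WT and 110 HET UMIs, a ratio of -1.45 (-2.0 to -0.87). *Ndufb5*, a subunit of respiratory complex I, had -1.44 (-2.09 to -0.74), *Lrp8*, a reelin receptor, -1.40 (-2.02 to -0.75), and *Mirg*, a non-coding RNA of the imprinted *Meg3* locus, -1.39 (-1.96 to -0.79). In subcluster 15 alone each of the 5 was also lower in HET, between -2.56 for *Ttr* and -1.25 for *Otx2os1*.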

How the data were processed

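The deposited counts are UMIs per gene and nucleus, made by the authors with Cell Ranger on mm10 and filtered in Seurat 4.1 per the labels, and not normalized. The percent values and the doublet score of each nucleus were used as deposited by the authors. Every nucleus is listed as a singlet, and no doublet caller was run here. The caller of the authors is not given in the sources used here. Clusters were not recomputed, and 0 columns of unknown samples were left out.

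UMIs were summed over nuclei and compared as log2 ratios of CPM with exact conditional binomial intervals. Shares have exact Clopper-Pearson intervals, at 95%. Genes needed 50 UMIs for identity and 20 for genotype, and past 2-fold counted as called. A count of 0 was set to a floor of 3 UMIs. Thinned shares are those expected at 1000 UMIs per nucleus, with intervals on the expected count rounded to a whole number. With 1 library per genotype, no test was made.

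Named genes were the listed markers a comparison turns on, the 15 largest differences from the other neuron clusters with at least 50 UMIs, and the 5 largest and 5 smallest HET over WT ratios with at least 100 UMIs. *Samd3*, *Nfia*, *Nfib* and *Nfix* were chosen after their values were seen. The members and lists were chosen with earlier results of these data known. Alternatives varied filters, scaling, background, doublet scores and nuclei used. Steps were tested on simulated data. Some genes of the lists are counted but not reported by name. Counts were read with pandas 2.3.3 and numpy 2.4.6 under Python 3.11.15, intervals came from scipy 1.17.1, and matplotlib 3.10.9 drew the figures.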

Additional observations from a re-analysis of the deposited data

Results flagged for a closer look

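*Otx2os1* was lower in HET within neuron.5, with a log2 ratio of -1.45 (37 WT and 110 HET UMIs), and higher in HET in the other neuron clusters, with a ratio of 0.46 (0.22 to 0.71) at 4.23 CPM in WT and 5.83 CPM in HET. The opposite directions drew attention to it, and the difference between them was not tested, since there is 1 library per genotype.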

How the results depend on the processing

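The share of neuron.5 kept its direction under all 6 alternatives, with ratios from 7.53 to 8.97. The number of genes more than 2-fold higher than in the other neuron clusters was 1876, and 1191 with at least 200 UMIs. Genes higher in HET numbered 980, and 435 with at least 50 UMIs. Genes lower in HET numbered 620, 165 with at least 50 UMIs, 1567 with no minimum and 402 in subcluster 15 alone, where fewer genes were tested in the first and last case and more in the other. The median ratio of ribosomal protein genes, -0.75, was -0.57 without subcluster 21 and -0.60 in subcluster 15 alone. That of oxidative phosphorylation genes, -0.53, was -0.40 in subcluster 15 alone. The cause of these 3 shifts was not tested. Alternatives on subclusters were chosen after the data had been seen. No paired analysis was possible because there is 1 library per genotype. Intervals cover counting error only, and the 42 WT nuclei, with 157276 UMIs, limit every comparison between genotypes.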

Other observations

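The immediate early genes, whose transcripts follow neuronal activity, summed to 122.7 CPM (105 to 142) in neuron.5, compared with 89.0 CPM (87.3 to 90.8) in the other neuron clusters. The levels were 178 CPM (118 to 257) and 117 CPM in WT, and 116 CPM (98.0 to 136) and 57.3 CPM in HET. Against the other neuron clusters, 3 of 16 genes were more than 2-fold higher and 1 lower, with a median log2 difference of 0.43. Of all genes, 9.91% were more than 2-fold higher and 12.9% more than 2-fold lower. Counts per gene were low within neuron.5. Of 16 genes, 2 had at least 20 UMIs, *Jund* with 7 WT and 32 HET UMIs and *Nr4a1* with 2 and 30. *Fos* had 3 WT and 6 HET UMIs and *Fosb* 0 in both. Summed over the list, the log2 ratio of HET over WT was -0.62 (-1.21 to 0.02) in neuron.5 and -1.03 (-1.09 to -0.97) in the other neuron clusters. A finer deposited label calls 24 HET and 0 WT nuclei of neuron.5 activated neurons, 18 of them in subcluster 15. For 0 of 42 WT nuclei the exact 95% interval reaches 8.41%, which is above the HET share of 24 of 332.

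Astrocyte genes moved with the oligodendrocyte genes. Summed over 4 markers, they had 11 WT and 185 HET UMIs in neuron.5, a log2 ratio of 1.05 (0.18 to 2.08), compared with -0.19 (-0.26 to -0.13) in the other neuron clusters. *Slc1a2*, the main glutamate transporter of astrocytes, had 38.1 CPM in WT and 103 CPM in HET.

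In a second deposited clustering at the same resolution, 312 of the 374 nuclei fell in a cluster of 344 nuclei that took in subclusters 15 and 33 together, and 29 fell in another cluster of 52, of which 26 came from subcluster 21.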
